A study of Mus musculus with 8 samples.

Results

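Mitochondrial ribosomal protein genes were followed in hearts of mice with autoimmune myocarditis that had been given VEGF-C or PBS. The members were all genes of the deposited table with values whose symbol begins with Mrpl or Mrps and a number, without named pseudogenes. This rule used no expression difference and gave 78 of 18835 genes, 49 of them with an Mrpl and 29 with an Mrps symbol. Having values in all 8 hearts was part of the rule, and the smallest count behind any value of the 78 was 567 reads. Only 1 symbol of this form had no values, a named pseudogene.

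The mitochondrial ribosome sits in the matrix, bound to the inner membrane. It makes the few respiratory chain proteins that mitochondrial DNA encodes. Its ribosomal RNAs are transcribed from that DNA, while all of its proteins are encoded in the nucleus, made in the cytosol and imported. In heart muscle, which lives on oxidative phosphorylation, its output has to match the nuclear-encoded respiratory subunits, and defects of single proteins cause cardiomyopathy in humans. Part of the proteins have a bacterial counterpart. The others are found in mitochondria only.

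Both groups were male BALB/cAJcl mice, 10 weeks old, immunized with cardiac myosin to bring on the myocarditis. The VEGF-C group (4 mice) was injected intraperitoneally with VEGF-C C156S, a variant of the lymphatic growth factor that acts on the receptor VEGFR-3, at 1 µg per day on days 7 to 10 after immunization. The PBS group (4 mice) was injected with the carrier over the same days. RNA came from heart tissue in week 3; hearts without myocarditis were not analysed here, so every difference is between inflamed hearts.

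Libraries held 53.7 to 65.2 M reads in the VEGF-C group and 61.7 to 76.8 M reads in the PBS group. The label heart fits the cardiomyocyte markers, all 12 of which averaged at least 40574 normalized reads (reads divided by the authors' 1 factor per library). Marker levels moved with treatment in part. The summed level of the cardiomyocyte list was 4351776 to 4888712 normalized reads in VEGF-C hearts and 3251477 to 4262445 in PBS hearts, with 1 of its 12 genes past the test. That of the B cell list was 706 to 1847 in VEGF-C hearts and 2688 to 4542 in PBS hearts, with 4 of 6 genes lower. The neutrophil list, at 10606 to 32302 and 16825 to 42104 normalized reads in VEGF-C and PBS hearts, had 2 of 6 genes lower. The macrophage and monocyte list had 1 of 10 lower and the fibroblast and lymphatic endothelium lists 1 of 8 and 1 of 7 higher, while the T cell, blood endothelium, smooth muscle and adipocyte lists had 0 called in limma (at an unadjusted limma p under 0.05, 2 T cell and 4 adipocyte markers were lower and 1 blood endothelium marker was higher; the authors' table was not used for markers). Every listed marker averaged above 0, and 2 adipocyte markers were at 0 in 2 hearts each, Ucp1 in VEGF-C replicates 1 and 4, and Lep in VEGF-C replicate 2 and PBS replicate 3. The adipocyte list had the lowest median log2 fold change of the marker lists, -2.69, with all 6 fold changes negative. Its summed level was 161 to 8642 normalized reads in VEGF-C hearts and 5881 to 13642 in PBS hearts, lowest in VEGF-C replicates 2 and 4, so the groups overlapped. In tissue RNA, fewer cells of a type and less RNA per cell cannot be told apart, and the part of cell composition in the results below was not tested.

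Most mitochondrial ribosomal protein genes had slightly higher values in VEGF-C hearts, and a few passed the test, all of them as higher. With limma on the log2 values of all genes and a threshold of 0.05 on the Benjamini-Hochberg adjusted p, 9 members (11.5%) rose and 0 fell. Over all genes tested 7.05% rose and 8.61% fell, and among protein-coding genes within the range of mean level that the members span, 11.9% rose, so the share of members that rose was near that background. The median log2 fold change of the members was 0.16, a fold of 1.12, against 0.00 over all genes and 0.09 over the protein-coding genes of that range. Fold changes were positive in 67 of 78 members (85.9%), against 65.8% of those coding genes. The direction rested on how libraries were scaled: with library totals, which move the median of all genes by -0.19, the median of the members was -0.030 and only 30 were positive. A change of scaling moves all genes nearly alike. The median of the members relative to that of all genes was therefore 0.16 with library totals too, which does not bear on the direction.

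The range of change was narrow. Log2 fold changes ran between -0.21 (Mrpl24) and 0.55 (Mrps2), 25 members lay between -0.1 and 0.1, and 0 reached a fold of 1.5. The standard error had a median of 0.08 and lay between 0.06 and 0.18. At an unadjusted limma p under 0.05, 29 members were higher and 1 was lower, where 16.0% and 16.3% of all genes were, and 26.5% and 10.7% of the coding genes in the members' range of level. All 4 VEGF-C hearts were above all 4 PBS hearts in 16 members (20.5%), against 11.5% of all genes and 19.1% of coding genes in the same range of level, and below them in 1 (11.6% of all genes).

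**Figure D1:**
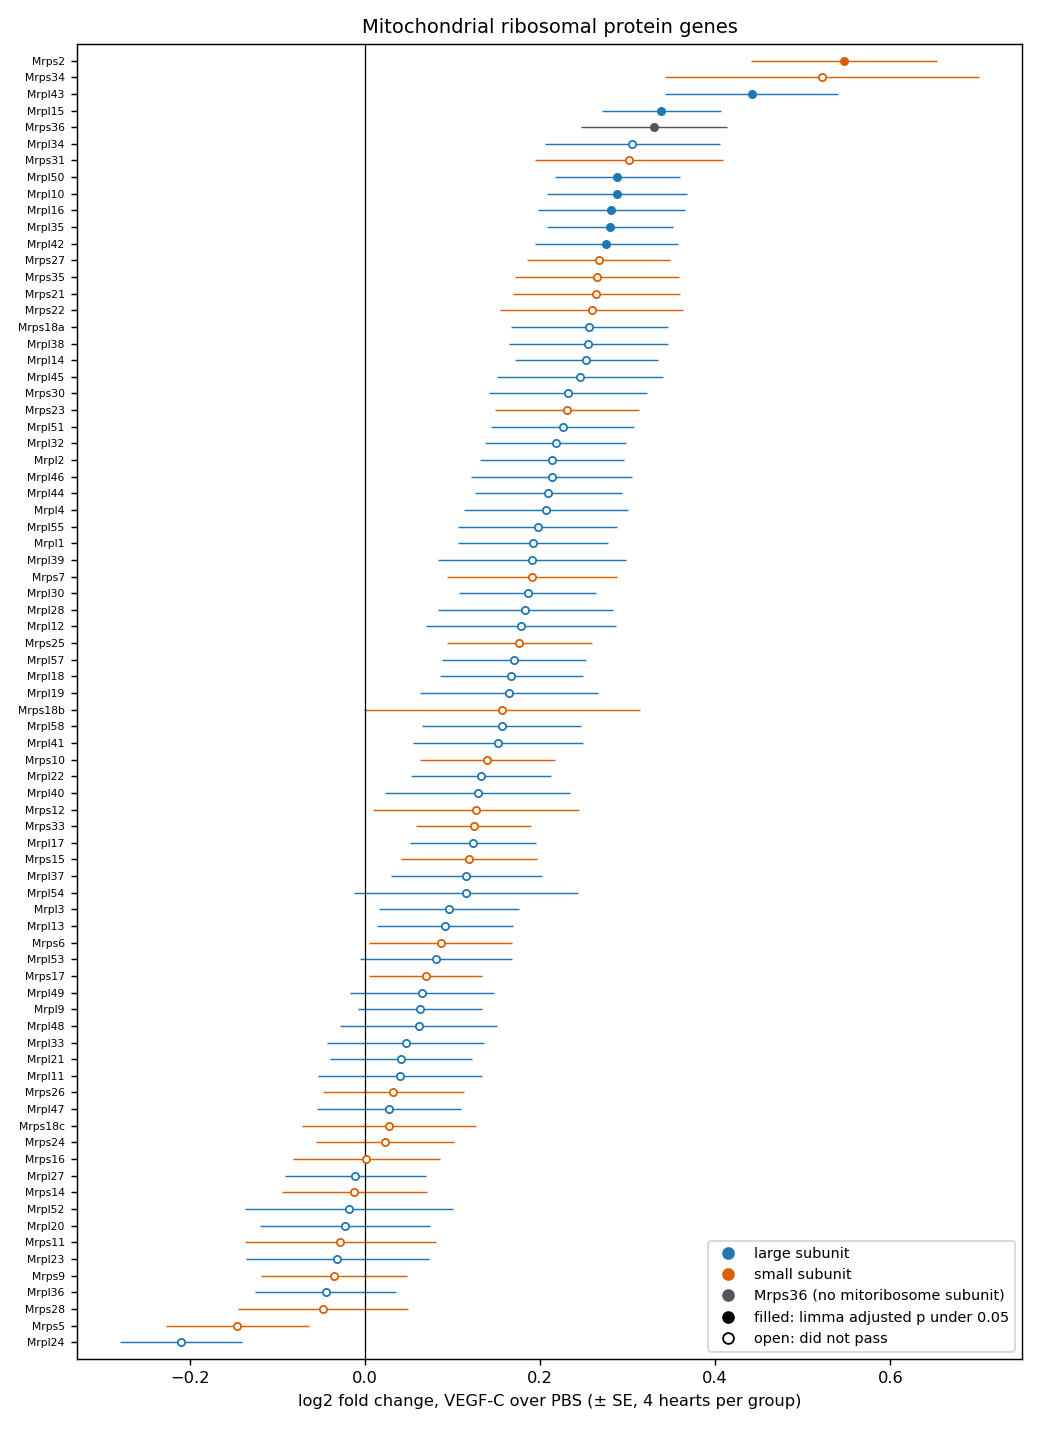
Log2 fold change of each of the 78 members, VEGF-C over PBS, with its standard error (4 hearts per group), sorted and coloured by ribosomal subunit; filled points passed the limma test. The filled points are 9 members between 0.28 and 0.55, and 67 of 78 points lie right of 0 (30 of 78 when libraries are scaled by their totals).

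Mrps2 (ENSMUSG00000035772), the counterpart of bacterial protein S2 in the small subunit, rose most. It had 2387, 2380, 2601 and 2400 normalized reads in VEGF-C hearts, against 1908, 1636, 1356 and 1836 in PBS hearts. The VEGF-C hearts were close together and all above the PBS hearts, which were spread more widely. Means were 2442 ± 107 in VEGF-C and 1684 ± 247 in PBS (SD, n = 4 each), which is 0.55 ± 0.11 (SE) as log2 fold change, with a limma adjusted p of 0.00872. Mrps2 was the only member called under all 9 other settings and without each of the 8 hearts in turn (adjusted p up to 0.0314).

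Of the large subunit proteins with a bacterial counterpart, 4 rose. Mrpl15 (ENSMUSG00000033845), the L15 protein, had 6686, 6273, 6304 and 6181 normalized reads in VEGF-C hearts, against 5399, 4819, 4733 and 5190 in PBS hearts. The groups were well apart, with a log2 fold change of 0.34 ± 0.07 (SE) and an adjusted p of 0.0102 in limma. Mrpl10 (ENSMUSG00000001445), which holds the flexible stalk that recruits translation factors, had 3344, 3338, 3189 and 3196 normalized reads in VEGF-C hearts, against 2790, 2564, 2393 and 2990 in PBS hearts. PBS replicate 4 came nearest to the VEGF-C hearts, and the log2 fold change was 0.29 ± 0.08. Mrpl35 (ENSMUSG00000052962), the L35 protein, had 2674, 2353, 2454 and 2390 normalized reads in VEGF-C hearts, against 2087, 1956, 1945 and 2136 in PBS hearts. Mrpl16 (ENSMUSG00000024683), which lies near the peptidyl transferase centre, had 1722, 1893, 1768 and 1891 in VEGF-C hearts, against 1485, 1501, 1339 and 1670 in PBS hearts. Both groups of values were apart for these genes, though in Mrpl16 by little. Their log2 fold changes were 0.28 ± 0.07 and 0.28 ± 0.08 (SE), and the limma adjusted p was 0.0359 for Mrpl10, 0.0272 for Mrpl35 and 0.0462 for Mrpl16.

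Large subunit proteins found in mitochondria only gave 3 more. Mrpl43 (ENSMUSG00000025208) had 856, 1018, 855 and 810 normalized reads in VEGF-C hearts, against 631, 621, 631 and 713 in PBS hearts, so the log2 fold change was 0.44 ± 0.10 (SE), at a limma adjusted p of 0.0161. It was the least abundant of the called members, and its highest PBS heart stayed below its lowest VEGF-C heart. Mrpl50 (ENSMUSG00000044018) had 3183, 3019, 3047 and 2964 normalized reads in VEGF-C hearts, against 2627, 2466, 2275 and 2645 in PBS hearts (0.29 ± 0.07, adjusted p = 0.0238). Mrpl42 (ENSMUSG00000062981) had 14536, 13822, 14964 and 12855 in VEGF-C hearts, against 11776, 11960, 10294 and 12407 in PBS hearts (0.28 ± 0.08, adjusted p = 0.0465). The lowest VEGF-C heart and the highest PBS heart were near each other in Mrpl42.

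Mrps36 (ENSMUSG00000061474) carries a ribosomal symbol, but its product is a subunit of the 2-oxoglutarate dehydrogenase complex of the citric acid cycle. It had 3185, 2666, 2817 and 2628 normalized reads in VEGF-C hearts, against 2359, 2209, 2058 and 2344 in PBS hearts. VEGF-C replicate 1 stood above the other VEGF-C hearts, and the log2 fold change was 0.33 ± 0.08 (SE, limma adjusted p = 0.0257). Without it, 8 members rose that are ribosomal proteins. Its pseudogenes Mrps36-ps1 and Mrps36-ps2 averaged 80.6 and 117 normalized reads in VEGF-C hearts and 62.6 and 76.8 in PBS hearts, and neither passed.

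**Figure D2:**
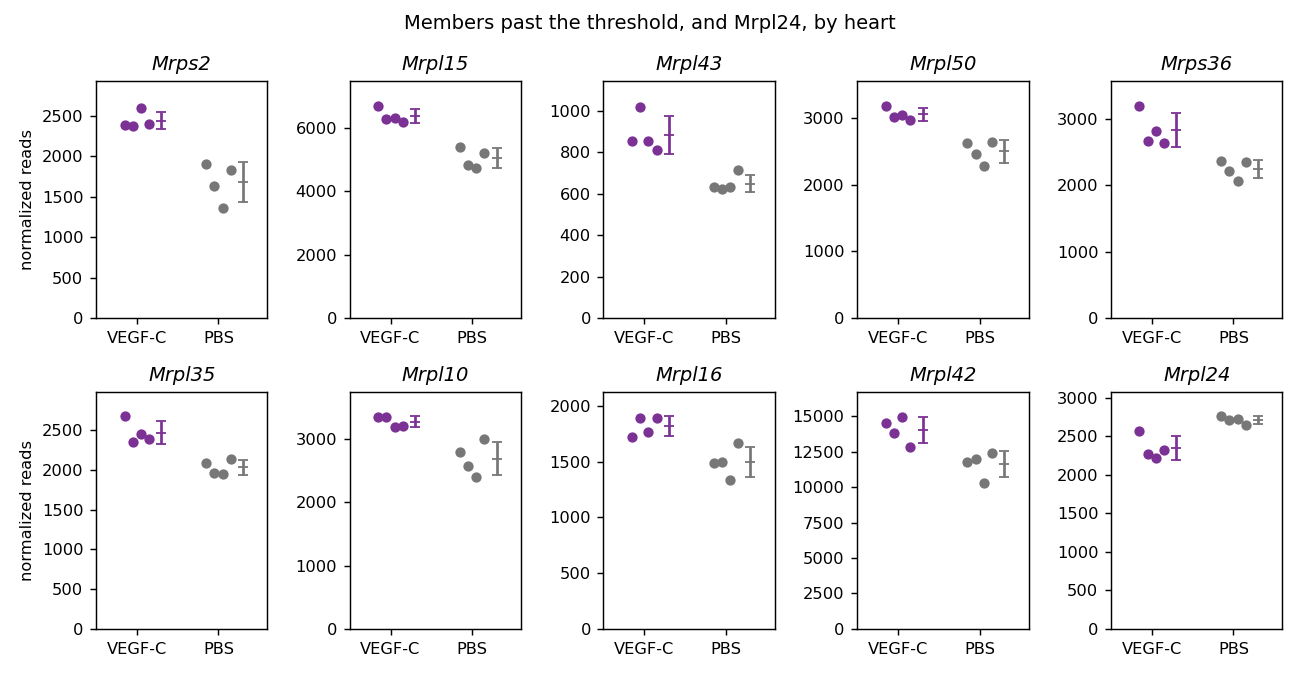
Normalized reads per heart (points, left to right replicates 1 to 4; bars, mean ± SD, n = 4) in VEGF-C and PBS hearts for the 9 members past the threshold and for Mrpl24; the y axes start at 0. In each of the 9 all VEGF-C points lie above all PBS points, and in Mrpl24 the order is the other way; with library totals only Mrps2 of the 9 passed.

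Several of these calls rested on single hearts or on the scaling. Mrpl15 and Mrpl43 lost their call only with library totals. Mrpl50, Mrps36 and Mrpl35 each lost it in the fits that left out VEGF-C replicate 1, VEGF-C replicate 3, PBS replicate 2 and PBS replicate 3, where the limma adjusted p reached 0.0618, 0.0643 and 0.0685. Mrpl10 kept it only without PBS replicate 1 or 4 (up to 0.0822), and Mrpl16 kept it only without PBS replicate 4 (up to 0.102) and Mrpl42 only without VEGF-C replicate 4 (up to 0.126). All 9 but Mrps2 lost the call with library totals, and Mrpl35, Mrpl10, Mrpl16 and Mrpl42 also with upper-quartile factors. With TMM factors both Mrpl16 and Mrpl42 lost it, Mrpl16 also in limma-voom with quality weights, and Mrpl42 in limma-voom and the robust fit. The number of members that rose was 3 without PBS replicate 3, 5 without PBS replicate 2, 3 without VEGF-C replicate 1 and 4 without VEGF-C replicate 3. By the adjusted p of the authors' deposited table, 14 members were higher and 1 was lower at the same threshold, where 10.2% and 11.4% of genes were. All 9 members called here were among them.

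The members nearest to the threshold from outside were Mrps27 and Mrpl14. Mrps27, a pentatricopeptide repeat protein of the small subunit, had 1541, 1695, 1416 and 1652 normalized reads in VEGF-C hearts, against 1254, 1392, 1272 and 1310 in PBS hearts (log2 fold change 0.27 ± 0.08, limma adjusted p = 0.0510). Mrpl14, which lies at the face between the subunits, had 3931, 3770, 3238 and 3387 in VEGF-C hearts, against 2923, 3231, 2817 and 3026 in PBS hearts (0.25 ± 0.08, adjusted p = 0.0619). The groups did not overlap in either gene, and in Mrpl14 VEGF-C replicate 3 almost met PBS replicate 2. The call of Mrps27 was gained without VEGF-C replicate 3 (limma adjusted p = 0.0481). Mrps34, whose loss destabilizes the small subunit in mouse and human, had the second largest fold change, 0.52 ± 0.18. It had 895, 1047, 770 and 775 normalized reads in VEGF-C hearts, against 461, 792, 706 and 505 in PBS hearts, so the groups overlapped and it did not pass (adjusted p = 0.0740; 0.0382 without PBS replicate 2).

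Mrpl24 had the lowest fold change, and its VEGF-C hearts were all below its PBS hearts. This protein lies at the exit of the tunnel through which the new chain leaves the ribosome. It had 2576, 2272, 2223 and 2325 normalized reads in VEGF-C hearts, against 2772, 2712, 2724 and 2645 in PBS hearts. VEGF-C replicate 1 came close to the PBS hearts, which hardly differed among themselves. The log2 fold change was -0.21 ± 0.07 (SE) with a limma adjusted p of 0.0649, and it passed when VEGF-C replicate 1 was left out (0.0457), with upper-quartile factors (0.0304) and with library totals (0.00399). Next came Mrps5, a small subunit protein at the entry of the mRNA channel, with means of 1516 ± 104 normalized reads in VEGF-C and 1677 ± 113 in PBS (SD, n = 4 each; -0.15 ± 0.08, limma adjusted p = 0.245). Mrps28 had a log2 fold change of -0.05 ± 0.10.

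Large subunit members, 51 with Mrps30 and Mrps18a, had a median log2 fold change of 0.17, and 7 (13.7%) rose. The 26 small subunit members had a median of 0.13, and Mrps2 alone (3.85%) rose. Over all genes 7.05% rose, and 11.9% of coding genes in the members' range of level, so the large subunit share was near that background. By origin, the median was 0.12 in the 46 members with a bacterial counterpart, 36 of them positive, and 0.21 in the 31 found in mitochondria only, 30 of them positive. The contrast was wider in the small subunit, where 16 members with a bacterial counterpart had a median of 0.05 and 10 mitochondrial ones of 0.24. In the large subunit the medians were 0.17 (30 members) and 0.19 (21 members). Mrps18a and Mrps18b, relatives of bacterial protein S18 that do not take its position, were counted as found in mitochondria only. These are descriptions of the members and were not tested against each other; with library totals the median of all members was -0.030.

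**Figure D3:**
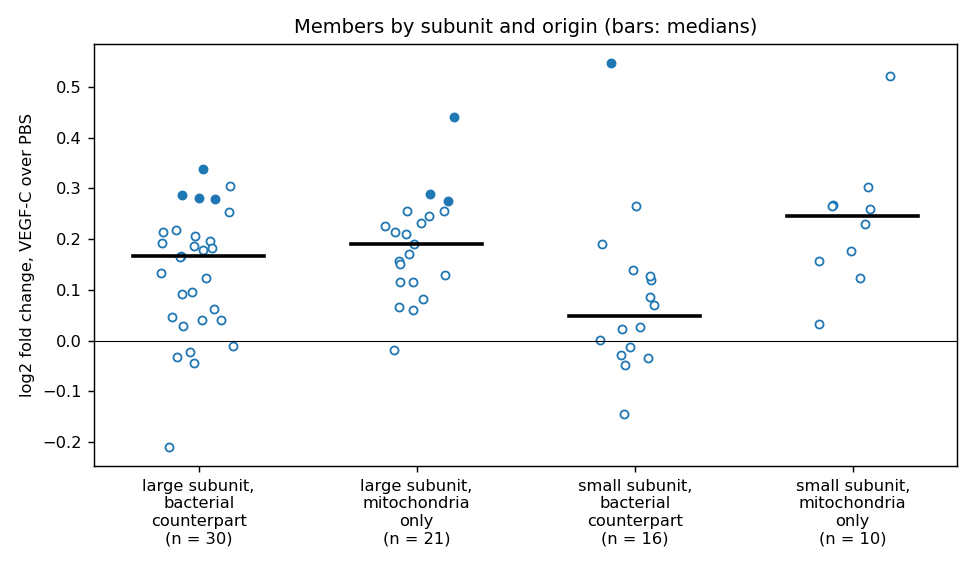
Log2 fold changes (VEGF-C over PBS, y axis) of the members by subunit and by whether the protein has a bacterial counterpart; filled points passed the limma test and bars are medians. The medians are 0.17 and 0.19 in the large subunit and 0.05 and 0.24 in the small subunit, with the authors' scaling; library totals shift the median of all genes by -0.19.

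The structural lists hold 3 of the 8 called ribosomal proteins, Mrpl10, Mrpl16 and Mrps2. With 4 to 8 genes in a list, their counts were not compared with the shares that rose elsewhere. Those were 7.05% of all genes and 11.9% of coding genes in the members' range of level. Of the proteins of the stalk and its base (Mrpl10, Mrpl11, Mrpl12 and Mrpl53) 1 of 4 rose, with a median log2 fold change of 0.13. Mrpl12, the stalk protein itself, had means of 13108 ± 2093 normalized reads in VEGF-C and 11476 ± 456 in PBS (SD, n = 4 each), and the VEGF-C hearts spanned 10827 to 15240, against 10801 to 11777 in PBS hearts, so the groups overlapped. Around the exit of the tunnel 0 of 8 passed limma (median 0.13; at an unadjusted p under 0.05, 2 higher and 1 lower, and Mrpl24 lower in the authors' deposited table). Among them Mrpl45, which ties the ribosome to the inner membrane, had a fold change of 0.25 ± 0.09 (limma adjusted p = 0.102). In the central protuberance 0 of 8 passed (median 0.16; 2 higher at an unadjusted limma p under 0.05 and 0 in the authors' deposited table), with Mrpl58, a peptidyl-tRNA hydrolase built into the particle, at 0.16 ± 0.09. Of 4 proteins around the peptidyl transferase centre 1 rose (median 0.16), and of 5 along the decoding site and mRNA path Mrps2 rose (median 0.13), with Mrps12, the decoding protein, at 0.13 ± 0.12.

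Vertebrates have 3 relatives of bacterial protein S18 in this ribosome. Mrps18c takes the bacterial position in the small subunit, Mrps18b another place in it, and Mrps18a sits in the large subunit. Mrps18a had 5313, 5229, 4505 and 4149 normalized reads in VEGF-C hearts, against 4078, 4219, 3855 and 3847 in PBS hearts (log2 fold change 0.26 ± 0.09, limma adjusted p = 0.0785). VEGF-C replicates 1 to 3 were above all PBS hearts and replicate 4 was not. Mrps18b averaged 788 ± 30.8 in VEGF-C and 723 ± 185 in PBS (SD, n = 4 each), and Mrps18c 734 ± 44.3 and 722 ± 74.5 normalized reads, with fold changes of 0.16 ± 0.16 and 0.03 ± 0.10. Mrps30, the other large subunit protein with a small subunit symbol, had 0.23 ± 0.09 and did not pass.

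Mrpl3, Mrpl44, Mrps14 and Mrps22 are linked to cardiomyopathy in humans, and 0 of 4 passed (2 at an unadjusted limma p under 0.05, 4 of 4 not called in the authors' deposited table). Mrpl44 had 2930, 2772, 2829 and 2819 normalized reads in VEGF-C hearts, against 2404, 2551, 2137 and 2764 in PBS hearts. These groups did not overlap, by a margin of a few reads, and the fold change was 0.21 ± 0.08 (limma adjusted p = 0.115). Mrps22 averaged 1036 ± 63.0 in VEGF-C and 869 ± 111 in PBS (SD, n = 4 each; 0.26 ± 0.10). Mrpl3, at 3259 ± 238 and 3048 ± 216, and Mrps14, at 2929 ± 243 and 2951 ± 205 normalized reads in VEGF-C and PBS, had overlapping groups.

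Within each group many members, but not all, had the same hearts high or low. The median over members of the deviation from each gene's mean over all hearts was 0.15, 0.15, 0.03 and -0.01 (log2) in VEGF-C replicates 1 to 4 and -0.03, -0.06, -0.18 and -0.04 in PBS replicates 1 to 4. VEGF-C replicates 1 and 2 were therefore high, replicates 3 and 4 lay near the PBS hearts, and PBS replicate 3 was low. The highest VEGF-C heart was replicate 1 or 2 in 63 of 78 members, and both were above replicates 3 and 4 in 45. The lowest PBS heart was replicate 3 in 45 members, though it was the highest PBS heart in 17. PBS replicates 1, 2 and 4 were highest in 23, 13 and 25 members, so the members shared no highest PBS heart. Such counts were not made over all genes. As a share of all reads, the members together took 0.382%, 0.378%, 0.351% and 0.338% in VEGF-C replicates 1 to 4 and 0.368%, 0.374%, 0.367% and 0.368% in PBS replicates 1 to 4, and on this scale the VEGF-C hearts lay on both sides of the PBS hearts.

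In complex I, nuclear-encoded subunits pair with products of the mitochondrial ribosome. The nuclear genes were taken by symbol alone (Ndufa, Ndufb, Ndufc, Ndufs or Ndufv and a number). They also had VEGF-C replicates 1 and 2 high and PBS replicate 3 lowest. The other PBS hearts came in another order than in the members. The median deviation of these complex I genes was 0.23, 0.17, 0.02 and -0.01 in VEGF-C replicates 1 to 4. It was -0.13, -0.05, -0.14 and -0.07 in PBS replicates 1 to 4. Of 41 such genes 13 (31.7%) rose and 0 fell, with a median log2 fold change of 0.20. Over all genes 7.05% rose and 8.61% fell. Genes of the cytosolic ribosome also had VEGF-C replicates 1 and 2 above replicates 3 and 4, with deviations of 0.19, 0.13, -0.14 and -0.13. They differed from the members in the PBS hearts, at -0.04, -0.05, 0.25 and -0.20. PBS replicate 3, the lowest heart of the mitochondrial members, was the highest heart there. Of 88 cytosolic genes 1 (1.14%) rose and 0 fell, with a median of 0.01. The cardiomyocyte markers had deviations of 0.13, 0.24, 0.12 and 0.18 in VEGF-C and -0.20, -0.04, -0.29 and 0.01 in PBS. Their median log2 fold change was 0.28, above the 0.16 of the members, with 11 of 12 positive and 1 called. PBS replicate 3 was lowest, as in the members. PBS replicate 1 was next lowest in the markers but among the higher PBS hearts in the members. VEGF-C replicate 4 was the lowest VEGF-C heart in the members but not in the markers. The part of the cardiomyocyte share in the members' values was not tested, nor were the classes tested against each other.

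**Figure D4:**
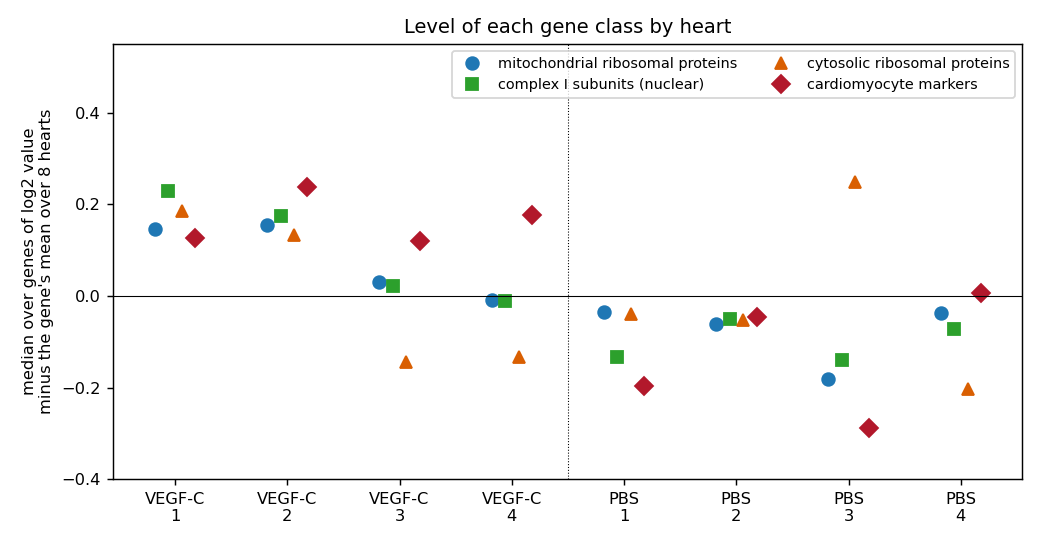
Median over the genes of a class of the log2 value minus the gene's mean over 8 hearts (y axis), for each heart (x axis; replicate numbers carry no order), in mitochondrial ribosomal protein genes, complex I subunit genes, cytosolic ribosomal protein genes and cardiomyocyte markers. Mitochondrial ribosomal protein genes lie between -0.01 and 0.15 in VEGF-C hearts and between -0.18 and -0.03 in PBS hearts with the authors' scaling, while the shares of all reads given in the text overlap.

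Per length of exon, with lengths of the GENCODE M21 annotation (GRCm38), members had a median of 1099.8 normalized reads per kb in VEGF-C hearts and 1026 in PBS hearts. The order of levels was led by Mrpl12 (8556 per kb in VEGF-C and 7491 in PBS), Mrps21 (6539 and 5430) and Mrps23 (5919 and 5029). At the low end were Mrps10 (216 in VEGF-C and 197 in PBS), Mrps22 (259.5 and 218) and Mrps30 (258 and 219.6). The highest PBS level was 38.1 times the lowest, although most of these proteins are thought to be present once in each particle. Annotated exons that are not used in heart lower such a value, and this was not tested.

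The ribosomal RNAs that these proteins bind, mt-Rnr1 and mt-Rnr2, were both higher in VEGF-C hearts. This was not particular to them. Of the 16 mitochondrially encoded genes with values, these 2 among them, 15 had positive fold changes, with a median of 0.54. In limma 3 of the 16 (18.75%) rose and 0 fell, against 7.05% and 8.61% of all genes. The library kit selects polyadenylated RNA, so these values are of the part that it captured. mt-Rnr1 (ENSMUSG00000064337) had 57072, 46067, 53343 and 53746 normalized reads in VEGF-C hearts, against 43253, 24472, 32408 and 36089 in PBS hearts. All VEGF-C hearts were above all PBS hearts, by 0.65 ± 0.16 in log2 fold change (SE, limma adjusted p = 0.0217). mt-Rnr2 (ENSMUSG00000064339) had 105504, 87391, 108855 and 111939 in VEGF-C hearts, against 89889, 44236, 62051 and 75024 in PBS hearts (0.65 ± 0.20, adjusted p = 0.0495). Here PBS replicate 1 lay above VEGF-C replicate 2. The call of mt-Rnr1 was lost with library totals, and in fits that left out PBS replicate 3 or 1 of VEGF-C replicates 1, 3 and 4, with a limma adjusted p of at most 0.0598. That of mt-Rnr2 was kept only without PBS replicate 1 (up to 0.113) and was lost with TMM factors, upper-quartile factors and library totals.

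Other proteins of mitochondrial translation moved in both directions. Of 5 ribosomal proteins with other symbols 0 passed and 2 were higher at an unadjusted limma p under 0.05. Dap3, which binds GTP, had a log2 fold change of 0.14 ± 0.07, Ptcd3 0.27 ± 0.11, Gadd45gip1 0.28 ± 0.11, Aurkaip1 0.06 ± 0.08 and Chchd1 -0.0046 ± 0.11. Of 16 translation factors 2 (12.5%) rose and 1 (6.25%) fell, where 7.05% and 8.61% of all genes did. The elongation factor Tufm averaged 10546 ± 258 normalized reads in VEGF-C and 7887 ± 1365 in PBS, and the recycling factor Mrrf 2782 ± 131 in VEGF-C and 2301 ± 164 in PBS (SD, n = 4 each). Their fold changes were 0.44 ± 0.12 and 0.28 ± 0.07 (limma adjusted p = 0.0337 and 0.0326).

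Metap1d (ENSMUSG00000041921), which removes the first methionine from new mitochondrial proteins, fell more than any member changed. It had 626, 729, 754 and 837 normalized reads in VEGF-C hearts, against 2172, 2377, 2245 and 2423 in PBS hearts, which is -1.65 ± 0.10 as log2 fold change (limma adjusted p = 2.60e-05). Of 20 measured aminoacyl-tRNA synthetases and amidotransferase subunits 0 rose in limma (2 at an unadjusted p under 0.05, 0 in the authors' deposited table) and Lars2, the leucyl-tRNA synthetase, fell, with 6081, 8299, 10954 and 5718 normalized reads in VEGF-C hearts, against 24734, 13535, 40178 and 24635 in PBS hearts (-1.68 ± 0.30, adjusted p = 0.00634). PBS replicates 2 and 3 of Lars2 differed widely. The list as a whole had a median of 0.07, with 14 of 20 positive and 5.0% called lower, against 8.61% of all genes.

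Over all genes 7.05% rose and 8.61% fell. Of 28 assembly factors 1 (3.57%) rose and 0 fell (median 0.03). That gene was C1qbp, a matrix protein needed for mitochondrial translation, at 6639 ± 136 normalized reads in VEGF-C and 5088 ± 586 in PBS (SD, n = 4 each; 0.39 ± 0.09, limma adjusted p = 0.0160). Of 19 genes that transcribe, copy and process mitochondrial DNA and RNA 4 (21.1%) rose and 0 fell (median 0.20). They were the RNA helicase Supv3l1 (0.36 ± 0.09), the DNA packaging and transcription factor Tfam (0.26 ± 0.06), the RNase P subunit Hsd17b10 (0.26 ± 0.07) and the DNA helicase Twnk (0.26 ± 0.08). Of 7 genes for insertion and assembly of the products at the inner membrane 2 (28.6%) rose, with a median of 0.23. These were the insertases Cox18 (0.42 ± 0.09) and Oxa1l (0.28 ± 0.08). With library totals, over these 6 lists 0 genes rose and 13 fell in limma, where the authors' scaling gave 9 and 2. The number that rose was 3 without VEGF-C replicate 1, 2 or 3, and 4 without VEGF-C replicate 4 or PBS replicate 3. Without single hearts C1qbp, Cox18, Metap1d and Lars2 kept their calls (limma adjusted p up to 0.0486, 0.0364, 0.000287 and 0.0230). Supv3l1 lost its call without VEGF-C replicate 2 or 3 (0.0569), Tufm without PBS replicate 2 or any VEGF-C replicate (0.0774), and Mrrf without any heart but PBS replicate 1 and VEGF-C replicate 4 (0.0848). Tfam lost it when VEGF-C replicate 1, 3 or 4 was left out, or PBS replicate 3 (0.0591). Hsd17b10 lost it when VEGF-C replicate 1, 2 or 4 was left out, or PBS replicate 3 or 4 (0.0699). Twnk lost it without any heart but PBS replicate 1 (0.118), and Oxa1l without any heart but PBS replicate 2 (0.105). Twnk also lost its call with TMM factors, in limma-voom and with a pseudocount of 1, and Oxa1l in both voom fits. With upper-quartile factors Mrrf, Tufm, Tfam, Hsd17b10, Twnk and Oxa1l lost theirs.

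The members share a feature of position. In GENCODE M21, 33 of 78 (42.3%) had a protein-coding gene on the opposite strand that starts within 1000 bases of their own start, against 14.6% of protein-coding genes with values (2122 of 14574). Of their 30 partners with values 5 rose (Tcp1, Twnk, Wdfy1, Ndufb5 and Rab6a) and 4 fell (Mtbp, Mitd1, Ppp1r10 and Helq), and the median partner fold change was -0.01. Over all genes 7.05% rose and 8.61% fell, and over protein-coding genes 8.57% and 8.06% did. Mrpl43 and Twnk, the DNA helicase of the mitochondrial genome, are the pair in which both genes passed, though Twnk in only 4 of 9 other settings, at 0.44 ± 0.10 and 0.26 ± 0.08 (limma adjusted p = 0.0161 and 0.0495). Mrpl46 and Mrps11 form a pair of members, with fold changes of 0.21 and -0.03, and both are counted among the 30 partners. Exons of 33 members overlap those of another annotated gene, on the opposite strand in 28 and on the same strand in 8. As a share of exon length the overlap is largest in Mrpl53, at 88.0% (with Gm42688, same strand), and in Mrps25 it takes 69.8% (with Nr2c2). It takes 33.4% of the exon length of Mrpl43 (with Twnk) and 26.3% of that of Mrpl24 (with Rrnad1), and in Mrps34 it takes 63.4% (with Mapk8ip3) and 37.0% (with Nme3, same strand). The strand setting of the counting was not given in the sources used here, so the values of such members are uncertain.

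Promoter sequences from RefSeq (GRCm38.p6, 250 bases before to 50 after the annotated start) matched 69 of the 78 members, and were read for motifs known in genes of mitochondrial proteins. All motifs were searched on both strands. The NRF1 motif, GCGCA and GCGC with any 1 base between them, was in 13 of 69 members (18.8%), against 10.2% of 11462 protein-coding genes with values and 5.19% of all 27025 genes of the table. The ETS motif CCGGAAGT, bound by GABPA, was in 12 members (17.4%), against 8.22% and 4.31%. The YY1 motif AANATGGCG was in 11 (15.9%), against 5.23% and 2.76%. CCAAT was in 39.1%, against 42.3% and 41.1%, and TATAAA in 7.25%, against 9.55% and 15.7%. Of the 8 called members with a sequence 0 held the NRF1 motif, 1 the ETS motif and 2 the YY1 motif. The median fold change was 0.19 in members with the NRF1 motif and 0.14 in those without it, 0.08 and 0.16 for the ETS motif, and 0.16 and 0.15 for the YY1 motif, so holding a motif did not go with a clearly higher value. Because the NRF1 motif nearly mirrors itself, 1 site can match on both strands.

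The promoter windows below show 1 member for each of the NRF1, ETS and YY1 motifs. They also show Mrps2, the member that changed most, which holds none of these motifs. Each runs 5′ to 3′ on the strand of the gene, with NRF1, ETS and YY1 matches in capitals. CCAAT and TATAAA were not marked. The ETS match of Mrpl43 begins at position -12 from the annotated start, the YY1 match of Mrpl35 at position 23, and the NRF1 matches of Mrpl45 at -120, -38 and 15. A match says only that the letters are there.
Mrps2 (GRCm38.p6, chr2:28467816-28468115, plus strand): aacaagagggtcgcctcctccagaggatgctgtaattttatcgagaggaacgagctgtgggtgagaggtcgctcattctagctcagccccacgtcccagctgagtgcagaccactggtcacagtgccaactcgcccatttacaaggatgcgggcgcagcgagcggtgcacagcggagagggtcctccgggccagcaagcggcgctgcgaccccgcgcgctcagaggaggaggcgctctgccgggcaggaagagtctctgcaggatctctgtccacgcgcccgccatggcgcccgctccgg
Mrpl43 (GRCm38.p6, chr19:45006393-45006692, minus strand): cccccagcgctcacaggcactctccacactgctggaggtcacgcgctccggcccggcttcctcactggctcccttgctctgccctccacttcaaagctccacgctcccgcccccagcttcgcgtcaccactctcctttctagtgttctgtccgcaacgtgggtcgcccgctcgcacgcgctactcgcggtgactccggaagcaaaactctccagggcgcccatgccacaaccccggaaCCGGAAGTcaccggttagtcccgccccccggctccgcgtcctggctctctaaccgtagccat
Mrpl35 (GRCm38.p6, chr6:71823735-71824034, minus strand): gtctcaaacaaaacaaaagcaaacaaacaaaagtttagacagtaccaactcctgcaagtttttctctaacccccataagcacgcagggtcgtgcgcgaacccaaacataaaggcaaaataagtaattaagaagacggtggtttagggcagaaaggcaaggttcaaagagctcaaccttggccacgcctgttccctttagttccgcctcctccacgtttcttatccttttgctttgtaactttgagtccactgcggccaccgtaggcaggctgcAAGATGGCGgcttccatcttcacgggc
Mrpl45 (GRCm38.p6, chr11:97315466-97315765, plus strand): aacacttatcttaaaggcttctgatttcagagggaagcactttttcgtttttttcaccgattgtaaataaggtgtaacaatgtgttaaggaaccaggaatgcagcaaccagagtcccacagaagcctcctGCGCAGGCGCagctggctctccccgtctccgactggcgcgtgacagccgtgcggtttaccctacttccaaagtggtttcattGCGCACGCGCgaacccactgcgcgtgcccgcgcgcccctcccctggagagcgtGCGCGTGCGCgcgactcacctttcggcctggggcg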

How the data were processed

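RNA was sequenced from 8 hearts, 4 per group, grouped by the treatment label; the column numbers of the table tie to no animal and serve as replicate numbers. Nothing in the labels says how hearts were batched. Samples had a RIN above 8.0 and were made into stranded mRNA libraries, per the labels' protocols. Per the submitters' processing notes, the authors used GRCm39 with STAR 2.7.10a after Trim Galore 0.6.10, Subread 2.0.1 with featureCounts, and DESeq2 1.38.3; settings and annotation release were not given in the sources used here. What the authors deposited are log2 values, log2(x + 4), x being reads divided by 1 factor for each library, for 18835 of 56941 genes. In every library 100% of these values came back as whole reads (tolerance 0.01), and the factors equal median-of-ratios factors. The authors' deposited adjusted p-value (missing for 23 genes) and log2 fold change are used only where named.

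Here limma 3.58.1 (R 4.3.3) was fitted to the log2 values of all 18835 genes with treatment as the only term and a mean-variance trend; tests are two-sided and adjusted over all genes (Benjamini-Hochberg), with a threshold of 0.05. Tested on simulated data of the 18835 genes, it recovered 72% of 1.5-fold and 96% of 2-fold changes, with 8 false calls. The spread of the simulated data was chosen and not estimated from the hearts. All members changed less than 1.5-fold, and the recovery of such changes was not simulated. Fold changes are VEGF-C over PBS on the log2(x + 4) scale; standard errors are the model's. Normalized reads are x. Gene lists, the members and the rule for named genes were chosen with earlier results of these data known. Named were members past the threshold, the 3 highest and 3 lowest fold changes, the 3 highest and lowest levels, members next to the threshold, a fixed set by name, and up to 4 called genes of each list. Positions of neighbouring genes and the coding genes within the members' range of level were added after values were seen. Mrps10, Mrps21, the hearts that stood apart, the neighbouring genes and Mrpl46 with Mrps11 were named after their values were seen. Alternatives were TMM, upper-quartile and library-total scaling, limma-voom with and without quality weights, a robust variance fit, a pseudocount of 1, a filter at a mean of 10 normalized reads, the authors' adjusted p and leaving out each heart.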

Additional observations from a re-analysis of the deposited data

Results flagged for a closer look

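In 5 of 156 sets of 4 hearts (78 members in each group) a heart stood far from the other hearts of its group, its gap to the nearest heart, over the range of the group, being above Dixon's 95% critical value; chance flags about 1 in 20 such sets. Mrps2 was highest in VEGF-C replicate 3, at 11.35 on the log2 scale, the other VEGF-C hearts being at 11.22 to 11.23. Mrpl43 was highest in PBS replicate 4, at 9.49, against 9.29 to 9.31 in the other PBS hearts. Mrps21 was lowest in PBS replicate 1, at 11.80, against 12.01 to 12.05. Mrpl19 and Mrpl37 were lowest in PBS replicate 3, at 10.31 and 11.96, with the other PBS hearts at 10.67 to 10.72 and at 12.21 to 12.23. Of these members, Mrps2 and Mrpl43 passed the limma test with and without each of these hearts.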

How the results depend on the processing

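No paired analysis was possible because the labels give the groups no shared animal numbers. TMM factors, both voom fits, the robust fit, the pseudocount of 1 and the filter on low values kept 7 to 9 members called, all higher and all among the 9. With upper-quartile factors 5 members were higher and 1 lower, groups did not overlap upward in 8, and 3 genes of the 6 lists rose. With library totals 1 member was higher and 2 lower, 30 fold changes were positive, the median was -0.030, groups did not overlap upward in 4 and downward in 7 members, and 0 list genes rose and 13 fell. The authors' deposited table has 14 members higher and 1 lower. Leaving out 1 heart gave 3 to 11 members higher, 0 to 1 lower, a median of 0.13 to 0.19 and 64 to 73 positive. Groups did not overlap upward in 16 to 31 members and downward in 1 to 2. Leaving out a heart cannot lower such a count, so these ranges do not speak for a firmer separation. Of the list genes 3 to 10 were higher and 2 to 3 lower. The sign of small fold changes turned with library totals for Mrpl58 (-0.035), Mrpl12 (-0.013), Mrpl3 (-0.095), Mrps12 (-0.064), Mrps18b (-0.034), Mrps18c (-0.16; -0.028 with upper-quartile factors), Dap3 (-0.048) and Aurkaip1 (-0.13), and without single hearts for Mrps14 (-0.062 to 0.026), Chchd1 (-0.082 to 0.061), Mrps28 (-0.14 to 0.015) and Mrps18c (-0.025 to 0.092). The cause of these shifts was not tested. Each member had at least 567 reads in every library, and the precision of each fold change is given by its standard error, 0.06 to 0.18 with 4 hearts a group.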
